A study of Mus musculus with 14 samples.

Results

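The 44 genes described here are Myc and 43 genes of ribosome biogenesis that are commonly grouped with it, from RNA polymerase I to the assembly factors of both ribosomal subunits. They were chosen by name, with earlier results of these data known. Each was read from the transcript cluster (the set of array probes for 1 gene) that carries its symbol. All 44 were found, each in a single transcript cluster, among the 22203 transcript clusters of the arrays that have a gene symbol. RNA came from sorted mouse regulatory T cells (Tregs), a class of CD4 T cells defined by Foxp3 that restrains immune responses. Bone marrow of CD45.2+ donors was mixed with CD45.1+ wild-type marrow and grew out in irradiated Rag1-/- hosts, which lack T and B cells of their own, and CD45.2+ Tregs were sorted from these chimeras as central Tregs (cTregs, low in CD44 and high in CD62L) and effector Tregs (eTregs, high in CD44 and low in CD62L).

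All CD45.2+ donors carried Foxp3-Cre, a recombinase expressed in Foxp3+ cells together with YFP. Control donors (Foxp3Cre Atg14 +/fl) had 1 floxed allele of Atg14 and donors labelled KO (Foxp3Cre Atg14 fl/fl) had both alleles floxed. Atg14 encodes a subunit of the Vps34 lipid kinase complex that acts in autophagy. Controls were therefore heterozygous and Cre-bearing, not wild type. There were 4 arrays of control cTregs, 3 of KO cTregs, 4 of control eTregs and 3 of KO eTregs. Both subsets were sorted from 4 control and 3 KO chimeras, as many as the arrays of each subset, although no label ties an array to a particular animal. The age of the hosts is not given for these arrays. The mouse line is described as having carried a germline Atg14 null allele in some animals, and whether any donor here did is not given in the sources used here.

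Ribosome biogenesis begins in the nucleolus, where RNA polymerase I transcribes the long precursor of ribosomal RNA. Small nucleolar ribonucleoproteins (snoRNPs) then guide its methylation and pseudouridylation, and ordered sets of assembly factors fold and trim it with ribosomal proteins into the small and the large subunit. Myc is a transcription factor that, as a dimer with Max, binds the E-box CACGTG and is known for activating many genes of this pathway in growing lymphocytes.

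Promoter sequences are shown because the genes are grouped by their link with Myc. RefSeq promoters of the mouse assembly GRCm38.p6, 250 bases before to 50 bases after each annotated start, were found for 37 of the 44 genes at 40 start sites. The genes without an entry were Myc, Npm1, Fbl, Tbl3, Rrp12, Rrs1 and Bop1. CACGTG, which reads the same on both strands, occurred at 9 of the 40 start sites (22.5%), against 7.15% of 32851 start sites in the table. The 30 bases around each of the 9 matches are given in the direction of transcription, with CACGTG in capitals:
Grwd1: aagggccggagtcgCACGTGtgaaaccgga
Imp4: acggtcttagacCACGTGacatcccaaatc
Ltv1: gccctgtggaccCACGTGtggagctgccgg
Mybbp1a: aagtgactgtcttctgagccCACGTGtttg
Nop2: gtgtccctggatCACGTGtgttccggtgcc
Pes1: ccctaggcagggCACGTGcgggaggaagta
Tsr1: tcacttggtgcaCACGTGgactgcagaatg
Utp20: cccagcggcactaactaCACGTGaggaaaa
Wdr43: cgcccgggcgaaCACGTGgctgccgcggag
Position 1 is the first transcribed base at the start site of the promoter entry and position -1 the base before it. CACGTG began at position -121 in Imp4 and at -60 in Nop2. In the other 7 genes it lay in the first transcribed bases, from position 3 in Pes1, 18 in Wdr43, 25 in Tsr1, 29 in Ltv1, 35 in Grwd1, 38 in Utp20 and 41 in Mybbp1a. The stretches lie at chr7:45830740-45830769 on the minus strand (Grwd1), chr1:34439696-34439725 on the plus strand (Imp4), chr10:13193092-13193121 on the minus strand (Ltv1), chr11:72441347-72441376 on the plus strand (Mybbp1a), chr6:125131811-125131840 on the plus strand (Nop2), chr11:3963965-3963994 on the plus strand (Pes1), chr11:74898092-74898121 on the plus strand (Tsr1), chr10:88826765-88826794 on the minus strand (Utp20) and chr17:71616220-71616249 on the plus strand (Wdr43).

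Further motifs that are frequent in promoters of growth-related genes were searched on both strands. CACGCG, a variant E-box, was present at 27.5% of the 40 start sites against 9.27% of all. GGGCGG, a GC box, was present at 72.5% against 35.7%, and CCGGAA, the core of Ets family sites, at 45.0% against 14.9%. The upstream promoters of the 4 genes with the smallest P in control eTregs against cTregs, among those with an entry, follow, with matches to any of the 4 motifs in capitals:
Nop14: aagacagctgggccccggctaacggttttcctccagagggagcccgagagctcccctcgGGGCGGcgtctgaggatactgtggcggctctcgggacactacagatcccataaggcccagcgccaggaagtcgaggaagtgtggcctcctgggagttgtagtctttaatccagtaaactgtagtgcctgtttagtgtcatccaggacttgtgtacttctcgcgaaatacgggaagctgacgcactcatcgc
Dkc1: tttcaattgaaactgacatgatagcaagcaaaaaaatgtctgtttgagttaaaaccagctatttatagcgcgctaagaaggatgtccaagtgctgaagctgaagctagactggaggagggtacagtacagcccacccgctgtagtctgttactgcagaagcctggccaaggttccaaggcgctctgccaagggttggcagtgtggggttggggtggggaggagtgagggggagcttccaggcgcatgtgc
Nop56: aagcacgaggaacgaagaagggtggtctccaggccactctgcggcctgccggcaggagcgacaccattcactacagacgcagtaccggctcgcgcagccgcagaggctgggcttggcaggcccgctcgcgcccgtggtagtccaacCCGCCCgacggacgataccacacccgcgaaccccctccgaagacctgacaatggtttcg
Bysl: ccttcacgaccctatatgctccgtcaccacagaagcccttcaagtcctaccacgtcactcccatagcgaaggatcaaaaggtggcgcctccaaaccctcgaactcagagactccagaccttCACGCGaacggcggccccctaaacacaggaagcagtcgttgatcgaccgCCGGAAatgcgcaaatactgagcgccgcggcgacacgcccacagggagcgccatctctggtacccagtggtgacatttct
The Nop14 stretch is chr5:34660149-34660398 on the minus strand and holds 1 GGGCGG match, at position -191. The Dkc1 stretch is chrX:75095604-75095853 on the plus strand and holds none of the 4 motifs. The Nop56 stretch is chr2:130274162-130274366 on the plus strand, ends just before the annotated gene begins and holds 1 match to GGGCGG, read as CCGCCC. That match begins at position -59 from the start of the gene, and at -104 from the start site of the promoter entry, which lies 45 bases inside the gene. The Bysl stretch is chr17:47611493-47611742 on the minus strand and holds CACGCG at -129 and CCGGAA at -80. No matches overlapped in these 4 stretches. A match describes the letters and does not show that a factor binds.

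All values below are log2 signals after robust multi-array average (RMA), so a difference of 1 is a doubling of signal. The median background probe had 6.00 to 6.30 on the 14 arrays. The members had mean signals of 8.74 to 12.72, and 43 of the 44 lay above the median transcript cluster (8.82). Of the 44, 40 lay above the 60th percentile. All transcript clusters, the background used below, thus include many of lower signal than the members. Medians over the transcript clusters above the 60th percentile are therefore given beside it. Foxp3 had a log2 signal of 12.7 to 13.1 on all arrays, and Cd44 had 9.14 to 9.86 in cTregs and 10.6 to 11.5 in eTregs. Atg14 had a mean of 9.29 in KO cTregs against 8.94 in control cTregs and of 9.16 in KO eTregs against 8.84 in control eTregs. It was thus higher under the label KO, by 0.32 in eTregs (adjusted P = 0.550) and by 0.35 in cTregs (adjusted P = 1.00), with an unadjusted P below 0.05 in both. Whether its probes lie in the deleted part is not given in the sources used here, so the labels could not be checked by this gene, and every direction between genotypes rests on the labels.

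Arrays of KO eTregs did not look alike outside the pathway. Of a list of 22 monocyte and macrophage markers, all 22 exceeded the background median on the eTreg arrays and 20 to 22 did on the cTreg arrays. The median transcript cluster (8.82) exceeded it too, as did all 10 B cell and all 7 plasma cell markers on every array. This count therefore does not show which cells were present. The log2 of the summed signal of the 22 macrophage markers was 15.4 on KO eTreg arrays 2 and 3 and 13.2 on KO eTreg array 1. It was 13.7 to 14.1 in control eTregs, 12.5 to 12.7 in control cTregs and 12.7 to 12.9 in KO cTregs. The mean log2 signal of 30 cell cycle genes was 9.90 and 9.64 on KO eTreg arrays 2 and 3, 9.12 on array 1 and 9.26 to 9.47 in control eTregs. KO eTreg array 1 also stood nearest to the cTregs on the first principal component (34.5% of the variance), with a score of -4.30 against 5.26 to 39.9 on the other eTreg arrays. The Ncl, Npm1 and other ribosome biogenesis transcripts measured here are made by all nucleated cells, so in these sorted samples a change in the cells present and a change of RNA per cell cannot be told apart.

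**Figure D1:**
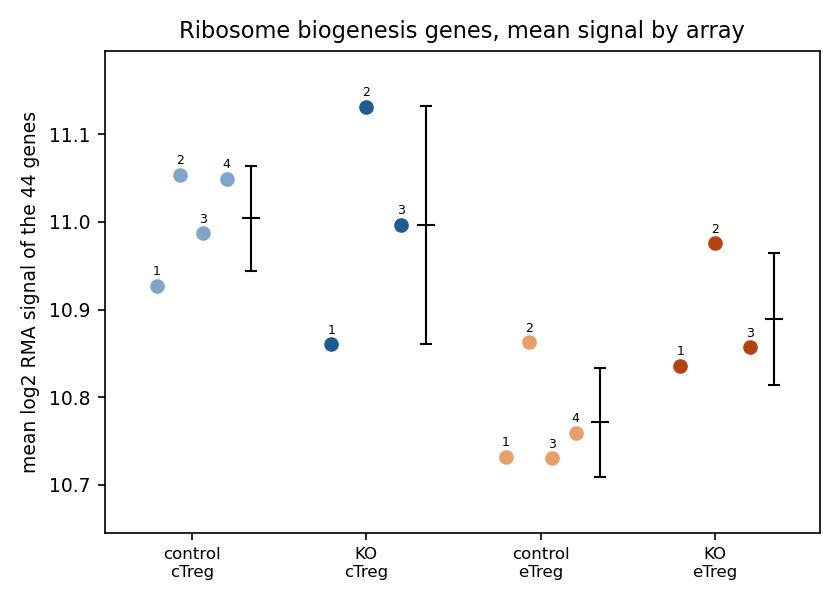
Mean log2 RMA signal of the 44 ribosome biogenesis genes (vertical axis) on each of the 14 arrays, in the 4 groups (horizontal axis), with points for arrays and their replicate number and black marks for the group mean and SD. The 4 control eTreg arrays, at 10.73 to 10.86, lie below the 4 control cTreg arrays, at 10.93 to 11.05, and the KO eTreg arrays lie between 10.84 and 10.98.

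The mean over the 44 genes gives the overall level. It was 10.93, 11.05, 10.99 and 11.05 on control cTreg arrays 1 to 4 and 10.73, 10.86, 10.73 and 10.76 on control eTreg arrays 1 to 4. It was 10.86, 11.13 and 11.00 on KO cTreg arrays 1 to 3 and 10.84, 10.98 and 10.86 on KO eTreg arrays 1 to 3. Control cTreg and control eTreg arrays did not overlap, whereas KO cTreg array 1 lay within the range of the KO eTreg arrays. The group means were 11.00 ± 0.06 in control cTregs (SD, n = 4), 11.00 ± 0.14 in KO cTregs (SD, n = 3), 10.77 ± 0.06 in control eTregs (SD, n = 4) and 10.89 ± 0.08 in KO eTregs (SD, n = 3). The median signal of all transcript clusters lay between 8.77 and 8.90 on the 14 arrays.

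The first comparison asks how effector Tregs differ from central Tregs in the controls. Of the 44 genes, 43 were lower in control eTregs than in control cTregs by sign, against 49.3% of all transcript clusters. In the limma fit, 19 fell at an unadjusted P below 0.05 (43.2%), where 5.9% of all transcript clusters did, and none rose, against 6.95%. After Benjamini-Hochberg adjustment over all transcript clusters, 4 genes fell at an adjusted P below 0.05 (Myc, Nop14, Dkc1 and Nop56), or 9.09% of the 44 against a background of 1.2%. With any 1 of the 8 control arrays left out, 1 or 2 genes passed after adjustment, Myc among them each time. With the replicate number within genotype as a block, 5 genes passed in the fixed form, in which Nop56 did not and Tbl3 and Wdr74 did, and 7 in the random form, which added Mybbp1a, Bysl and Bop1. The median log2 difference was -0.22, against 0.00 over all transcript clusters and -0.03 over those above the 60th percentile of signal. The eTreg and cTreg arrays did not overlap in 16 genes, all lower in eTregs, where 5.02% of transcript clusters behaved so. The monocyte and macrophage list was higher in control eTregs (median log2 difference 0.80, 13 of 22 markers with P below 0.05), and its part in these differences was not tested.

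Myc itself showed the smallest P of the 44 in this comparison. It had log2 signals of 12.17, 12.32, 12.23 and 12.17 on control cTreg arrays 1 to 4 and of 11.46, 11.79, 11.63 and 11.66 on control eTreg arrays 1 to 4. Every control eTreg array lay below every control cTreg array, with array 1 the lowest. Myc fell by 0.58 on the log2 scale (SE 0.12, adjusted P = 0.00934), a 1.5-fold difference. An exact permutation test (two-sided, 70 possible splits of the 8 arrays) gave p = 0.0286, the smallest it can give. The adjusted P stayed below 0.05 whichever of the 14 arrays was left out, with a highest value of 0.0382.

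Among the snoRNP genes, Dkc1 encodes dyskerin, the pseudouridine synthase of the box H/ACA snoRNPs and also a component of telomerase. It had 8.81, 9.01, 8.85 and 9.02 on control cTreg arrays and 8.39, 8.23, 8.42 and 8.23 on control eTreg arrays. The groups did not overlap and were separated by a gap wider than either group's range. Dkc1 fell by 0.61 (SE 0.15, adjusted P = 0.0314). Nhp2, another core protein of these particles, fell by 0.29 (SE 0.13, adjusted P = 0.368), while Gar1, a further core protein, differed by -0.07 and did not pass. Nop56, a scaffold protein of the box C/D snoRNPs, which carry out 2′-O-methylation, had 12.82, 12.85, 12.90 and 12.74 in control cTregs and 12.47, 12.53, 12.47 and 12.58 in control eTregs. All 4 eTreg arrays were below all 4 cTreg arrays. Nop56 fell by 0.31 (SE 0.08, adjusted P = 0.0470). Fbl, the methyltransferase of the same particles, fell by 0.25 (SE 0.09, adjusted P = 0.20), and Nop58, the partner of Nop56, fell by 0.27 (SE 0.10, adjusted P = 0.213). Rrp9, which binds the U3 snoRNA, differed by -0.20 and did not pass.

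All 13 genes of small subunit assembly were lower by sign in control eTregs, and 5 passed P below 0.05. Nop14, a component of the small subunit processome, had 11.42, 11.34, 11.25 and 11.39 in control cTregs and 11.04, 10.87, 10.94 and 10.88 in control eTregs. The groups did not overlap. Nop14 fell by 0.42 (SE 0.10, adjusted P = 0.0198). Bysl, which acts late in maturation of the small subunit, had 10.75, 11.03, 10.93 and 11.02 in control cTregs and 10.40, 10.66, 10.42 and 10.43 in control eTregs. The groups did not overlap, although the lowest cTreg array and the highest eTreg array were close. Bysl fell by 0.46 (SE 0.12, adjusted P = 0.0574). Tbl3, a WD-repeat protein of the small subunit processome, fell by 0.56 (SE 0.19, adjusted P = 0.149), with overlapping groups. Ltv1, an export-stage assembly factor, fell by 0.26 (adjusted P = 0.216) and Utp20 by 0.29 (adjusted P = 0.282). The other 8 genes of this group, with differences of -0.22 to -0.07, did not pass.

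Of the 14 genes of large subunit assembly, 13 were lower by sign and 4 passed P below 0.05. Bop1, which forms the PeBoW complex with Pes1 and Wdr12, fell by 0.36 (SE 0.12, adjusted P = 0.123). Its partners had a log2 difference of -0.07 for Pes1 and of 0.05 for Wdr12, the only one of the 44 genes that was higher by sign. Nop16 fell by 0.41 (adjusted P = 0.249), Wdr74 by 0.39 (adjusted P = 0.189) and Noc2l by 0.22 (adjusted P = 0.345). The lowest of the differences that did not pass was -0.26 (Ddx18), and whether Bop1 differed from its partners was not tested.

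Among the nucleolar scaffold and regulatory genes, all 7 were lower by sign and 3 passed P below 0.05. Mybbp1a, a nucleolar repressor of transcription, fell by 0.37 (SE 0.11, adjusted P = 0.0900). Gnl3, which encodes nucleostemin, fell by 0.43 (SE 0.18, adjusted P = 0.304), and Npm1, the abundant histone chaperone nucleophosmin, by 0.22 (SE 0.10, adjusted P = 0.347). Ncl, which encodes nucleolin, had a difference of -0.03. Of the 2 RNA polymerase I subunits, Polr1b fell by 0.21 (SE 0.09, adjusted P = 0.321) and Polr1a had a difference of -0.24 that did not pass.

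**Figure D2:**
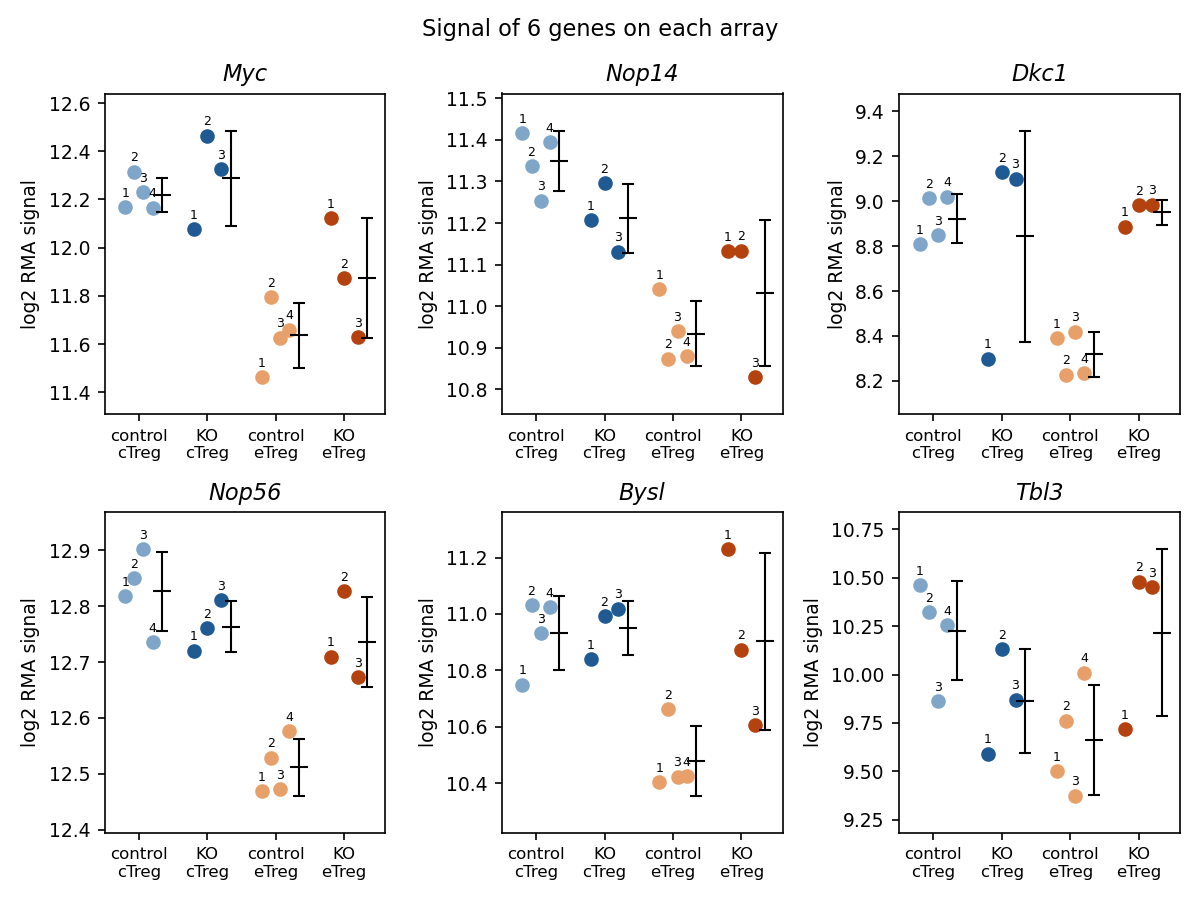
Log2 RMA signal (vertical axes, a separate scale for each gene) of Myc, Nop14, Dkc1, Nop56, Bysl and Tbl3 on each array, by group (horizontal axes), with points for arrays and their replicate number and black marks for the group mean and SD. In control arrays Myc, Nop14, Dkc1, Nop56 and Bysl separate eTregs from cTregs without overlap, and Dkc1 is higher on all 3 KO eTreg arrays, 8.89 to 8.98, than on the 4 control eTreg arrays, 8.23 to 8.42.

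The same comparison within the arrays labelled KO used 3 arrays a group. Here 36 of the 44 genes were lower in eTregs by sign, against 59.6% of all transcript clusters, with a median of -0.13 against -0.04. For transcript clusters above the 60th percentile of signal the median was -0.02. At P below 0.05, 6 genes fell (13.6%) where 6.12% of all transcript clusters did, and by limma none passed after adjustment, where 2.43% of all transcript clusters did. With the replicate number as a random block, 2 passed (Rrp9 and Tsr1), and as a fixed block none did. The groups did not overlap in 9 genes, all lower in eTregs (20.5% against 7.49%). Rrp9 had the smallest P, with 11.15, 10.91 and 10.84 on KO cTreg arrays 1 to 3 and 10.57, 10.61 and 10.43 on KO eTreg arrays 1 to 3. The groups did not overlap. Rrp9 fell by 0.43 (SE 0.12, adjusted P = 0.0735).

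Of the 4 genes that fell in controls after adjustment, Nop14, Dkc1 and Nop56 had overlapping cTreg and eTreg values in the arrays labelled KO. Nop14 had 11.21, 11.30 and 11.13 in cTregs and 11.13, 11.13 and 10.83 in eTregs, a difference of -0.18 (adjusted P = 0.514). Dkc1 had 8.30, 9.13 and 9.10 in cTregs and 8.89, 8.98 and 8.98 in eTregs, a difference of 0.11 (adjusted P = 0.845). KO cTreg array 1 was far below the other KO cTreg arrays and the eTreg arrays lay between. Nop56 had 12.72, 12.76 and 12.81 in cTregs and 12.71, 12.83 and 12.67 in eTregs, a difference of -0.03 (adjusted P = 0.940).

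Myc in the arrays labelled KO had 12.08, 12.47 and 12.33 in cTregs and 12.12, 11.87 and 11.63 in eTregs. KO eTreg array 1 lay above KO cTreg array 1, so the groups overlapped. Myc fell by 0.41 (SE 0.14, adjusted P = 0.153), and the exact permutation test gave p = 0.20, where the smallest p possible over 20 splits is 0.10. Without KO eTreg array 1, the array nearest to the cTregs, the adjusted P was 0.0320 and the difference -0.54. Without KO eTreg arrays 2 and 3, those with the highest macrophage signal, the difference was -0.17 (adjusted P = 0.921). The other genes with P below 0.05 were Tsr1 (-0.36, adjusted P = 0.115), Grwd1 (-0.39, adjusted P = 0.208), Wdr12 (-0.44, adjusted P = 0.333) and Ppan (-0.24, adjusted P = 0.354), of which the first acts on the small subunit and the other 3 on the large subunit.

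The effect of the genotype in effector Tregs was examined by comparing KO eTregs with control eTregs. Of the 44 genes, 31 were higher in KO eTregs by sign, against 44.2% of all transcript clusters, and the median log2 difference was 0.13 against -0.02. Transcript clusters above the 60th percentile of signal, nearer to the level of the members, had a median of 0.01. At P below 0.05, 7 genes rose (15.9%), where 4.33% of all transcript clusters did, and none fell, against 3.69%. By limma none of the 44 passed after adjustment, where 26 of all transcript clusters did (0.117%). The study's threshold (a log2 difference of at least 0.5 with P below 0.05) was met by Dkc1 and Tbl3, or 4.55% of the 44 against 1.9% of all transcript clusters in this direction. With KO eTreg arrays 2 and 3 left out, the median was 0.04 and 5 genes had P below 0.05. Without control eTreg array 3 there were 2 such genes, and without KO eTreg array 2 there were 3. A fixed block on the replicate number gave 11. This comparison shares the 4 control eTreg arrays with the control eTreg against cTreg comparison, so a low value on those arrays enters both.

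Dkc1 had the smallest P of the 44 in this comparison. It had 8.89, 8.98 and 8.98 on KO eTreg arrays 1 to 3, against 8.39, 8.23, 8.42 and 8.23 in control eTregs. All 3 KO arrays lay above all 4 control arrays, array 1 with its low macrophage signal included. Dkc1 rose by 0.63 (SE 0.16, adjusted P = 0.196), a 1.55-fold difference, and P stayed below 0.05 whichever array was left out. Leaving out KO cTreg array 1, on which Dkc1 had 8.30 against 9.13 and 9.10 on the other KO cTreg arrays, gave an adjusted P of 0.0180. Its group means were 8.92 in control cTregs (n = 4), 8.84 in KO cTregs (n = 3), 8.32 in control eTregs (n = 4) and 8.95 in KO eTregs (n = 3). Nhp2, of the same box H/ACA particles, had 10.96, 11.23 and 11.24 against 10.85, 10.96, 10.62 and 10.82. The lowest KO array and the highest control array were nearly equal. Nhp2 rose by 0.33 (SE 0.14, adjusted P = 0.553), and lost P below 0.05 without KO eTreg array 2 or 3 or control eTreg array 3 or 4. Gar1 differed by -0.08 and did not pass.

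Tbl3 and Bysl, of small subunit assembly, had their highest KO eTreg signals on different arrays. Tbl3 had 9.72, 10.48 and 10.45 on KO eTreg arrays 1 to 3, against 9.50, 9.76, 9.37 and 10.01 in control eTregs. Arrays 2 and 3 were above all controls and array 1 was within their range. Tbl3 rose by 0.56 (SE 0.21, adjusted P = 0.443). Without KO eTreg array 1 the difference was 0.81 with an adjusted P of 0.0414, and without arrays 2 and 3 it was 0.06 (adjusted P = 0.999). P was no longer below 0.05 without KO eTreg array 2, KO eTreg array 3 or control eTreg array 3. KO eTreg arrays 2 and 3 are also the arrays with the highest macrophage and cell cycle signals, and the part of either in the Tbl3 result was not tested. Bysl had 11.23, 10.87 and 10.61 on KO eTreg arrays 1 to 3, against 10.40, 10.66, 10.42 and 10.43. Array 1 was the highest and array 3 lay below control array 2. Bysl rose by 0.42 (SE 0.13, adjusted P = 0.317), and without KO eTreg arrays 2 and 3 the difference was 0.75 (adjusted P = 0.0854). Without KO eTreg array 1 it was 0.26 (adjusted P = 0.399), and P was no longer below 0.05.

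The other 3 genes that rose had differences of 0.22 to 0.31. Noc4l, the partner of Nop14 in the small subunit processome, had 10.60, 10.61 and 10.59 on the KO eTreg arrays, against 10.39, 10.42, 10.11 and 10.26 in controls. The 3 KO arrays were nearly equal and above all controls. Noc4l rose by 0.31 (SE 0.11, adjusted P = 0.435), and lost P below 0.05 without control eTreg array 3. Nop56 had 12.71, 12.83 and 12.67, against 12.47, 12.53, 12.47 and 12.58. The groups did not overlap. Nop56 rose by 0.22 (SE 0.09, adjusted P = 0.50), and lost P below 0.05 without KO eTreg array 2 or control eTreg array 3. Ltv1 had 10.81, 10.75 and 10.72, against 10.49, 10.67, 10.48 and 10.49, again without overlap. Ltv1 rose by 0.23 (SE 0.10, adjusted P = 0.598), and lost P below 0.05 when any of 7 of the 14 arrays was left out.

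Myc did not pass between genotypes in eTregs. It had 12.12, 11.87 and 11.63 on KO eTreg arrays 1 to 3, against 11.46, 11.79, 11.63 and 11.66 in controls. Arrays 1 and 2 were above all controls and array 3 was level with control array 3. The difference was 0.24 (SE 0.13, adjusted P = 0.693), and the exact permutation test over 35 splits gave p = 0.171. Leaving out 1 array moved the difference between 0.12 (without KO eTreg array 1) and 0.36 (without KO eTreg array 3), and leaving out both KO eTreg arrays 2 and 3 gave 0.49 (adjusted P = 0.383).

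In large subunit assembly, 8 of 14 genes were higher by sign and none passed (median 0.02, differences from -0.21 for Wdr12 to 0.35 for Nop16). Of the small subunit genes 9 of 13 were higher (median 0.12) and 4 passed. Both RNA polymerase I subunits were higher by sign (0.18 for Polr1a and 0.14 for Polr1b) and 6 of 7 nucleolar scaffold and regulatory genes were (median 0.15), with none past P below 0.05. Tsr1, a small subunit factor, was the only gene with all KO eTreg arrays below all controls, at 10.93, 10.81 and 10.80 against 10.94, 10.94, 10.97 and 11.06. Its difference of -0.13 did not pass. The count of genes without overlap was 7 higher (15.9% against 3.01% of all transcript clusters) and 1 lower (2.27% against 3.84%).

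**Figure D3:**
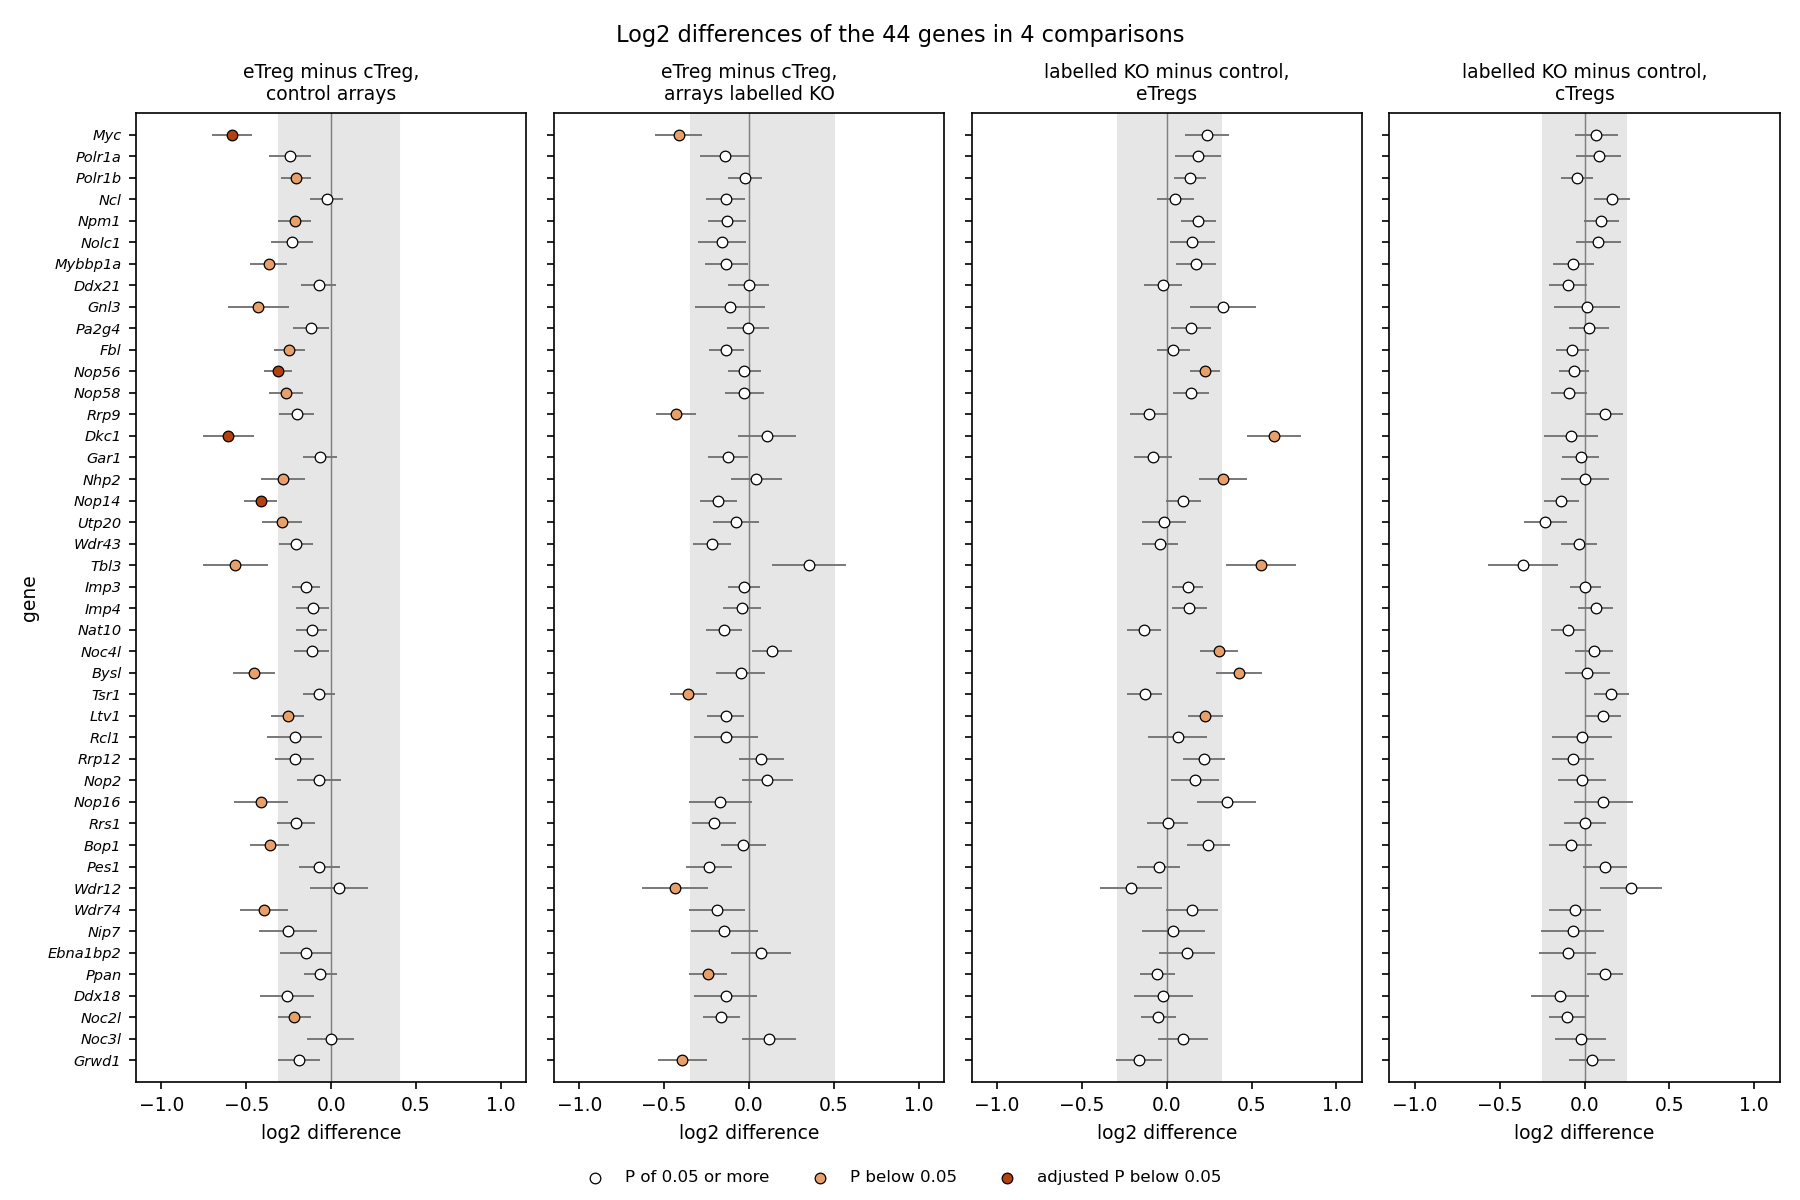
Log2 differences (horizontal axes) of each of the 44 genes (vertical axis) in 4 comparisons, with bars of 1 SE from limma and a grey band from the 5th to the 95th percentile of all 22203 transcript clusters, and with fill by unadjusted and adjusted P. In control arrays 43 of 44 genes lie left of 0, and in eTregs labelled KO against control 31 lie right of it.

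Nop16 and Gnl3 had the highest differences between genotypes in eTregs among the genes that did not pass. Nop16, a factor of early large subunit assembly, had 10.97, 11.33 and 11.75 on KO eTreg arrays 1 to 3 and 10.86, 11.20, 10.94 and 10.98 in control eTregs. Arrays 2 and 3 were above all controls and array 1 was not. The difference was 0.35 (SE 0.17, adjusted P = 0.647). Gnl3 had a mean of 9.92 ± 0.19 on the KO eTreg arrays (SD, n = 3) and of 9.58 ± 0.40 in control eTregs (SD, n = 4), so its control arrays spread widely and the groups overlapped. The difference was 0.33 (SE 0.19, adjusted P = 0.731). Wdr12, with the lowest difference of the 44, had a mean of 9.16 ± 0.25 (SD, n = 3) against 9.37 ± 0.26 (SD, n = 4), also with overlap. The difference was -0.21 (SE 0.18, adjusted P = 0.840).

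The genes not described so far had small differences in both of these comparisons, and none passed P below 0.05. In control eTregs against cTregs the log2 differences were -0.23 for Nolc1, a chaperone of snoRNPs, -0.07 for the RNA helicase Ddx21 and -0.12 for Pa2g4. They were -0.15 for Imp3 and -0.11 for Imp4, which bind the U3 snoRNA together, -0.11 for the RNA acetyltransferase Nat10, -0.21 for Rcl1, -0.22 for Rrp12 and -0.21 for Wdr43. In large subunit assembly they were -0.07 for the methyltransferase Nop2, -0.21 for Rrs1, -0.25 for Nip7, -0.15 for Ebna1bp2 and -0.002 for Noc3l. In KO against control eTregs, the values of the same genes ran from -0.13 (Nat10) to 0.22 (Rrp12).

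In cTregs no gene of the 44 differed between genotypes by limma at P below 0.05, in either direction, where 4.01% of all transcript clusters did. None passed after adjustment (10 of all transcript clusters, 0.045%). By sign, 21 were higher and 23 lower in KO cTregs, and the differences ran from -0.36 (Tbl3) to 0.27 (Wdr12). The median was -0.02, against 0.02 over all transcript clusters and -0.01 over those above the 60th percentile of signal. Tbl3 had 9.59, 10.13 and 9.87 on KO cTreg arrays 1 to 3 and 10.46, 10.32, 9.86 and 10.26 on control cTreg arrays 1 to 4. The groups overlapped. Myc differed by 0.07 (SE 0.13, exact permutation p = 0.514). KO cTreg array 1 had the lowest mean over the 44 genes of these 3 arrays (10.86), and without it the median was 0.05 and 2 genes had P below 0.05.

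The genotype effects in eTregs and cTregs were then compared directly by their difference (the interaction). By sign 34 of 44 genes had the larger value in eTregs, against 43.6% of all transcript clusters, with a median of 0.12 against -0.03. Over transcript clusters above the 60th percentile of signal the median was 0.02. At P below 0.05 there were 4 genes, all larger in eTregs (9.09%, against 2.92% of all transcript clusters), and by limma neither these genes nor any other transcript cluster passed after adjustment. The count was 2 to 6 with 1 array left out, with 2 genes in 6 of the 14 settings, and 2 after subtraction of the 75th percentile of each array. Tbl3 had a difference of effects of 0.92 (SE 0.29, adjusted P = 0.736), formed by 0.56 in eTregs and -0.36 in cTregs. Dkc1 had 0.71 (SE 0.23, adjusted P = 0.736), formed by 0.63 and -0.08. Both held P below 0.05 whichever array was left out, although for Dkc1 the difference was 0.44 without KO cTreg array 1. Bysl had 0.41 (adjusted P = 0.814) and Nop56 had 0.29 (adjusted P = 0.798). P was no longer below 0.05 with any of 11 of the 14 arrays left out for Bysl, down to 0.24 without KO eTreg array 1, and with any of 7 for Nop56. Without KO eTreg arrays 2 and 3, Tbl3 had 0.42 (adjusted P = 0.940) and Bysl 0.73 (adjusted P = 0.318). For Myc the difference of effects was 0.17 and did not pass.

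**Figure D4:**
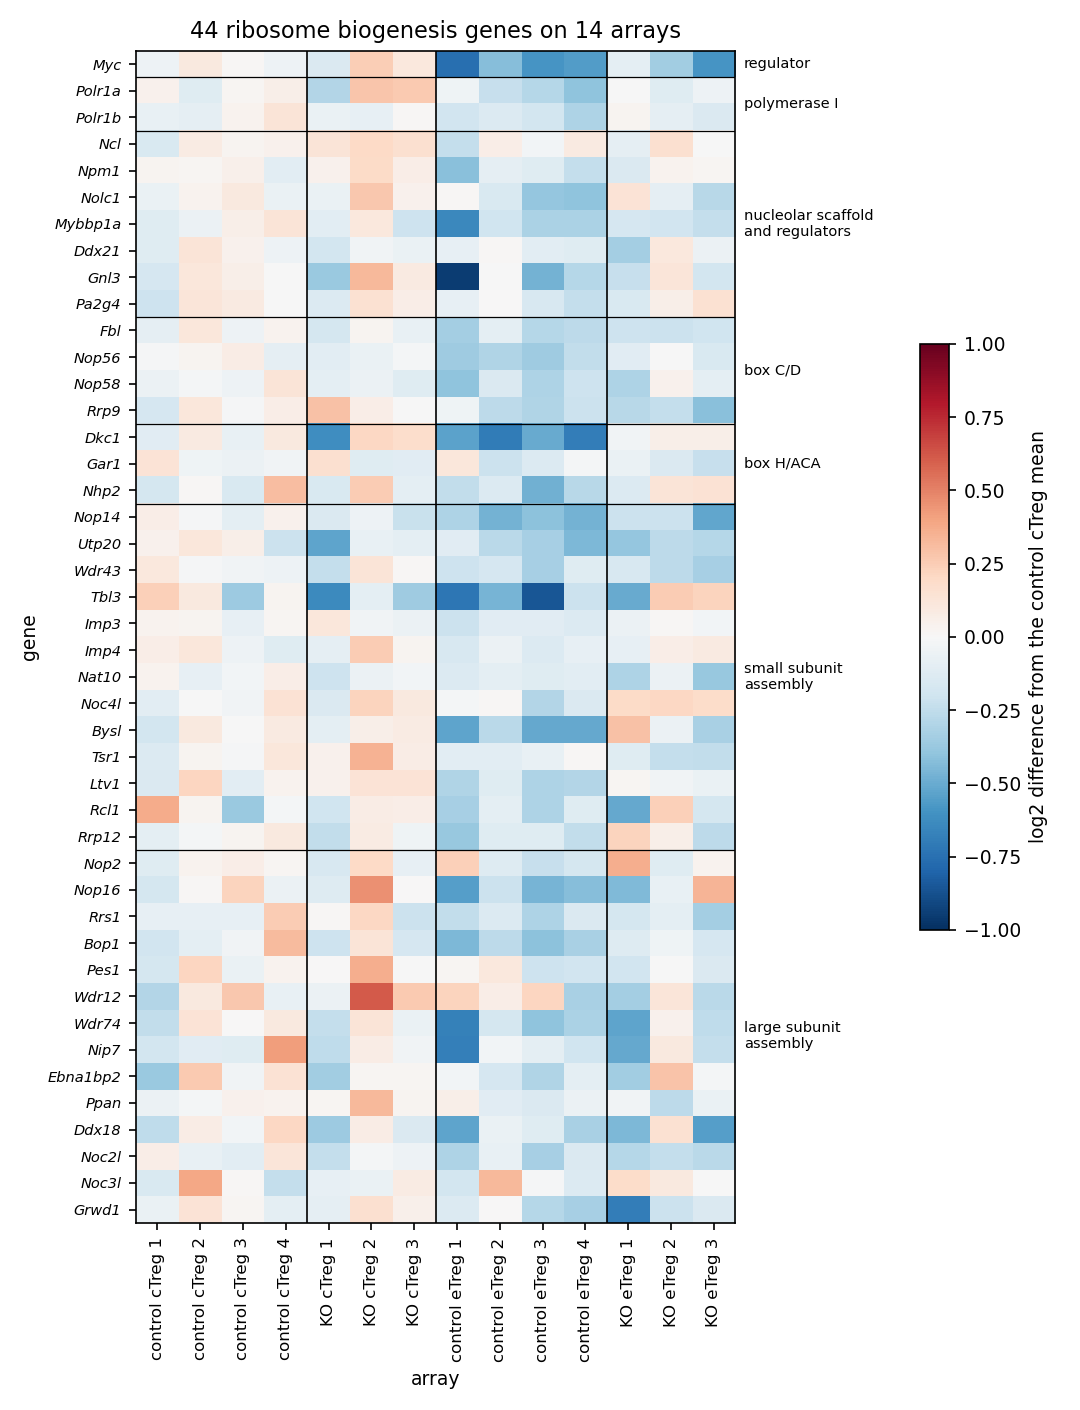
Log2 difference of each of the 44 genes (rows, in 7 functional groups) on each of the 14 arrays (columns) from the mean of the 4 control cTreg arrays, from blue (lower) through white to red (higher). Control eTreg columns are blue for most genes, while KO eTreg columns are mixed and differ between array 1 and arrays 2 and 3 (Tbl3, Nop16, Wdr74).

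In control eTregs against cTregs the median log2 difference was -0.19 over the 9 genes with CACGTG near their start, against -0.22 over the 28 genes with a promoter entry and no CACGTG. In KO against control eTregs the medians were -0.02 and 0.12. Of the 4 genes that fell after adjustment, Nop14, Dkc1 and Nop56 had no CACGTG in the window, and Myc had no entry. These are descriptions of the letters in the window, with no test.

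Other genes of the pathway were read from lists that do not contain the 44. In control eTregs against cTregs, 39 of 42 further small subunit factors were lower by sign (11 with P below 0.05, median -0.16), 38 of 45 large subunit factors (8, median -0.15), 11 of 13 further polymerase I genes (2, median -0.13), all 9 further snoRNP genes (2, median -0.21) and 11 of 12 genes of the RNA exosome, which trims ribosomal RNA (1, median -0.11). Of 77 cytosolic ribosomal protein genes, 74 were lower by sign, 19 with P below 0.05 and 2 after adjustment (median -0.16). Wdr46, a nucleolar scaffold of the small subunit processome, fell by 0.66 (adjusted P = 0.0337). The 30 cell cycle genes went the other way, with 25 higher by sign and 16 at P below 0.05 (median 0.37). The median over all transcript clusters in this comparison was 0.00, and 49.3% of them were lower by sign. Of all transcript clusters, 5.9% fell and 6.95% rose at P below 0.05, and 1.2% fell after adjustment.

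Other genes close to Myc were mixed. Of 36 Myc targets outside ribosome biogenesis, 32 were lower by sign in control eTregs (median -0.18), against 49.3% of all transcript clusters. At P below 0.05, 9 of the 36 fell, against 5.9%. Among the 36, Srm, the spermidine synthase, fell by 0.58 (adjusted P = 0.0357). Odc1, the ornithine decarboxylase that supplies its pathway, instead rose by 0.75 (adjusted P = 0.00501). Of 12 genes of the Myc network (Max and its other partners), 8 were lower by sign (median -0.05), and Mxd1, a partner of Max that opposes Myc, fell by 0.68 (adjusted P = 0.00119).

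The same lists were read in KO against control eTregs, where 44.2% of all transcript clusters were higher by sign. At P below 0.05, 4.33% of all transcript clusters rose and 3.69% fell, and whether any list exceeded these shares was not tested. Of the further small subunit factors 31 of 42 were higher by sign (3 with P below 0.05, median 0.12), of the large subunit factors 26 of 45 (3 higher and 1 lower with P below 0.05, median 0.01) and of the other Myc targets 28 of 36 (4 higher and 1 lower, median 0.09). The 77 ribosomal protein genes had a median of 0.02, with 1 at P below 0.05, the 9 further snoRNP genes 0.09, the exosome genes 0.08, the polymerase I genes 0.04 and the Myc network 0.03. None of these genes passed after adjustment by limma. Cell cycle genes were higher by sign in 26 of 30 cases (4 with P below 0.05, median 0.17), and monocyte and macrophage markers in 21 of 22 (10 with P below 0.05, median 0.91), against a median of -0.02 over all transcript clusters. Of 10 dendritic cell markers, 6 were higher at P below 0.05 (median 0.56), and of 10 CD8 T and NK cell markers 3 were (median 0.34). Their part in the differences of the 44 genes was not tested.

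**Figure D5:**
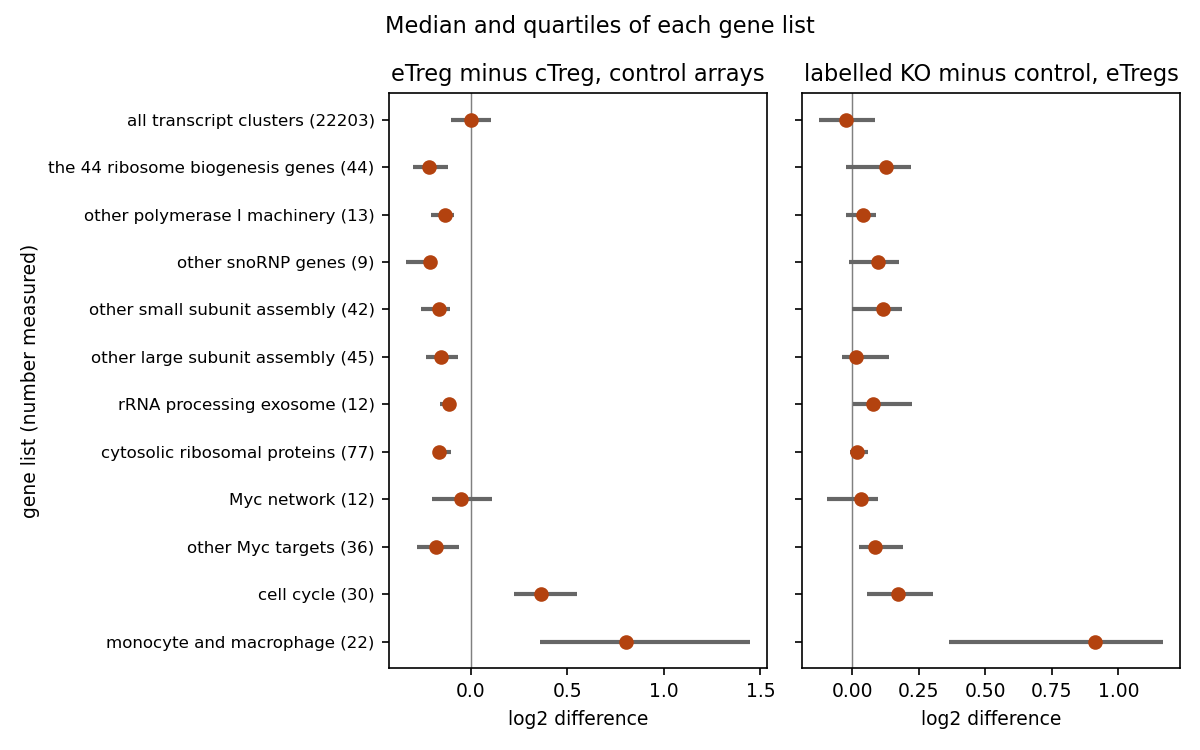
Median (points) and quartiles (bars) of the log2 differences (horizontal axes, a separate scale for each panel) of each gene list (vertical axis, number of genes measured in brackets), for eTregs against cTregs in control arrays and for eTregs labelled KO against control. In the left panel every list of ribosome biogenesis lies below 0, with -0.22 for the 44 genes, and the cell cycle and macrophage lists lie above it.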

How the data were processed

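Total RNA of 14 sorted Treg samples was labelled with the WT Plus assay and hybridised to Clariom S mouse arrays. The authors summarised the signals by robust multi-array average in Affymetrix Expression Console 1.1 per the labels, and the deposited values are log2 signals. Scanner files were not used here, so background correction and probe summary could not be varied, and the number of arrays limits the precision. The deposited table had 28846 entries. After removal of 6640 control probe sets and 3 entries with a blank symbol, 22203 transcript clusters (21902 symbols) entered the fit with no signal filter.

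The 4 group means were fitted with limma 3.58.1 (lmFit, eBayes; 10 residual and 5.65 prior degrees of freedom) in R 4.3.3, with two-sided P values adjusted by Benjamini-Hochberg over all 22203. Myc was also compared by exact two-sided permutation tests. The fit was run on simulated data with independent noise and planted differences. These data had no effect shared between arrays, so the run checks only that planted differences are recovered. Alternatives were fits of only the groups compared, array weights, trended robust shrinkage, subtraction of array medians or 75th percentiles, a filter at the 60th percentile of signal, averaging of rows, replicate blocks, and leaving out arrays. Promoters were RefSeq sequences. Figures were drawn with matplotlib 3.10.9.

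The 44 members, the other lists and the rules were chosen with earlier results of these data known. Values on every array were given for Myc, for up to 10 members of smallest P in a contrast and for the highest and lowest differences. From the other lists, genes of smallest P were named. Names in the lists were matched by symbol, and roles were taken from general knowledge. The labels name spleen and lymph nodes as the source, and the methods name spleen.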

Additional observations from a re-analysis of the deposited data

Results flagged for a closer look

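In groups of 4 arrays, 88 sets of values (44 genes in control cTregs and in control eTregs) were searched for 1 array far from the others by Dixon's criterion, and 6 stood out, where chance gives about 1 in 20. Gar1 had 12.10 on control cTreg array 1, against 11.91 to 11.93 on the other 3 arrays. Imp3 had 10.86 on control cTreg array 3, against 10.97 to 10.98. Bysl had 10.66 on control eTreg array 2, against 10.40 to 10.43. Ltv1 had 10.67 on control eTreg array 2, against 10.48 to 10.49. Rrs1 had 10.61 on control cTreg array 4, against 10.27 on the other 3, and Nip7 had 10.21 on the same array, against 9.61 to 9.68. Bysl and Ltv1 are 2 of the genes that rose in KO eTregs, and their high control array lay toward the KO values.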

How the results depend on the processing

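No called value changed its sign under any alternative. In KO against control eTregs, the 7 genes at P below 0.05 became 11 with a fixed replicate block, and the 0 genes at an adjusted P below 0.05 became 1 with array weights. The median of 0.13 there became 0.0351 with both KO eTreg arrays 2 and 3 left out, a setting chosen after seeing the data. In cTregs the 0 genes at P below 0.05 became 1 in a fit of only those groups and 2 with a fixed replicate block. For the interaction, 4 became 2 after subtraction of 75th percentiles. In control eTregs against cTregs, the 4 genes past adjustment became 11 with array weights, 7 with a random replicate block (correlation 0.238) and 5 with a fixed one. In arrays labelled KO, 0 became 1 with array weights, with array medians subtracted or with the signal filter, and 2 with a random block.

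With 1 array left out, genes at P below 0.05 numbered 2 (without control eTreg array 3) to 9 (without control eTreg array 2) in KO against control eTregs and 3 without KO eTreg array 2, with a median of 0.08 (without KO eTreg array 2) to 0.15. After adjustment they numbered 0 to 1, the 1 without KO cTreg array 1 or KO eTreg array 1. In cTregs they numbered 0 to 2, 2 without KO cTreg array 1 or 2 (0 to 0 after adjustment, median -0.06 to 0.05). For the interaction they numbered 2 (without KO cTreg array 1, KO eTreg array 2, control eTreg array 1 or 3 or control cTreg array 2 or 3) to 6, with 0 to 1 after adjustment (the 1 without KO eTreg array 1) and a median of 0.06 (without KO cTreg array 1) to 0.17. In control eTregs against cTregs they numbered 13 to 22, and 1 to 5 after adjustment, with a median of -0.25 to -0.19. Leaving out any 1 of the 8 control arrays gave 1 or 2 after adjustment, and Myc passed each time. In arrays labelled KO they numbered 3 (without KO cTreg array 2 or KO eTreg array 3) to 8, with 0 to 1 after adjustment (the 1 without KO eTreg array 1) and a median of -0.17 to -0.05 (without KO cTreg array 2), and of -0.06 and -0.08 without KO eTreg array 1 or 3.

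Replicate numbers are shared between groups. Both subsets were sorted from 4 control and 3 KO chimeras, but nothing says that equal numbers mark 1 animal. Deviations of same-numbered eTreg and cTreg arrays correlated by 0.07 to 0.22 in controls and 0.04 to 0.30 under the label KO, and 6 of the 7 eTreg arrays correlated best with the cTreg array of their own number. Same-numbered KO and control arrays, which are different animals, correlated by 0.01 to 0.29 in eTregs and 0.08 to 0.26 in cTregs, against -0.36 to 0.19 for other numbers. Since not every correlation exceeded 0.1, the reported fit has no block. That cut-off does not show that same-numbered arrays are independent. The permutation tests of Myc also treated the arrays as unpaired. With 3 or 4 arrays a group, small differences could not be detected.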
